A study of Mus musculus with 4 samples.

Results

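Small nucleolar RNAs (snoRNAs), the related small Cajal body RNAs (scaRNAs) and the long transcripts named after the snoRNAs they carry were examined in mouse astrocytes with a lentiviral shRNA against Phf8, a histone demethylase gene, or with a control shRNA. The members were all genes of the deposited counts whose GENCODE M21 symbol began with Snord, Snora, Scarna or Snhg, 165 of 55421 genes in all. They comprised 99 Snord, 42 Snora, 9 Scarna and 15 Snhg genes. The 150 Snord, Snora and Scarna genes are called the small RNAs here. The astrocytes were differentiated in serum medium from neural stem cells (NSCs) of the C57BL/6J strain, and all 4 samples were infected with lentivirus. The control shRNA and the Phf8 shRNA groups had 2 libraries each, and the labels do not say whether the replicates came from separate animals or how many shRNA sequences were used. Libraries were made from total RNA after depletion of ribosomal RNA with a strand-marking kit, which is not a small RNA protocol. How well RNAs this short were recovered was not tested.

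Box C/D snoRNAs (symbol Snord) guide ribose methylation and box H/ACA snoRNAs (Snora) guide pseudouridylation, mainly of ribosomal RNA in the nucleolus, and a few act in the cleavage of its precursor. scaRNAs guide the same modifications of spliceosomal small nuclear RNAs in Cajal bodies. In mammals most of these RNAs are cut out of introns of host genes, many of which encode ribosomal proteins or translation factors, while Snhg transcripts are host genes whose spliced RNA mostly has no long reading frame. PHF8 removes methyl groups from histone H3 and H4 and has been linked to transcription of ribosomal DNA.

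The sequences of the small RNAs on which the results turn are shown first, because the box classes are named after such letters. The classes compared here were set by symbol, not by these letters. Each is printed 5′ to 3′ on the strand of the gene from the transcripts of GENCODE M21 (GRCm38, the same as mm10). Capitals mark TGATGA (the C box with its preceding bases) within the first 15 bases, CTGA (the D box) within the last 12 bases and, in Snora30 and Scarna13, ACA within the last 8 bases. Snord17 (chr2:144265979-144266216, minus strand, 238 bases) and Snord53 (chr17:71640879-71640956, plus strand, 78 bases) are shown as box C/D snoRNAs that passed the test below. Snord104 (chr11:106500993-106501062, plus strand, 70 bases) is shown as a box C/D snoRNA of similar level that did not pass. Snora30 (chr7:127527874-127528003, plus strand, 130 bases) had the highest level of the Snora class. Scarna13 (chr12:105031075-105031349, minus strand, 275 bases) and Scarna9 (chr9:15326264-15326333, minus strand, 70 bases) are scaRNAs that were far denser in reads than their hosts. The last sequence is shared letter for letter by 14 of the 17 Snord116 copies, which lie within chr7:59861731-59902306 on the minus strand.
Snord17: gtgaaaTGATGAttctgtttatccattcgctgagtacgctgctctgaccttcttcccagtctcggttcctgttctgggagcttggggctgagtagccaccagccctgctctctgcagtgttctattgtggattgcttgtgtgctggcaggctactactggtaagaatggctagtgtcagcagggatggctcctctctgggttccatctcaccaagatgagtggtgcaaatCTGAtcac
Snord53: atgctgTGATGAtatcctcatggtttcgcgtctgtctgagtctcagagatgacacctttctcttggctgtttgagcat
Snord104: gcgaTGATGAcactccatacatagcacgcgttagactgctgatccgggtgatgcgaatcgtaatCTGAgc
Snora30: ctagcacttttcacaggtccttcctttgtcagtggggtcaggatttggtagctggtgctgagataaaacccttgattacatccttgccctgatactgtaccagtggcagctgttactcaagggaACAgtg
Scarna13: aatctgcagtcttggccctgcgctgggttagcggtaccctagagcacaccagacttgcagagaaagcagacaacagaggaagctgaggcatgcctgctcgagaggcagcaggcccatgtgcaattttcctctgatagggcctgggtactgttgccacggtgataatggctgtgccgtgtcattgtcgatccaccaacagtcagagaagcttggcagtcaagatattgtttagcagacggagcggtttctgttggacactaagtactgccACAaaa
Scarna9: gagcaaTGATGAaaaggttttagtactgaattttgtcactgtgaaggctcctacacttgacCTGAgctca
Snord116 copies: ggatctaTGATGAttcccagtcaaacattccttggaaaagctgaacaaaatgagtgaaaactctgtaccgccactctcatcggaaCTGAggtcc

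The letters differed in frequency between the classes named by symbol, with exceptions. TGATGA stood within the first 15 bases of 64 of the 99 Snord genes, CTGA within the last 12 bases of 86, and 62 (62.6%) had both. ACA stood within the last 8 bases of 40 of the 42 Snora genes (95.2%). None of the 42 had TGATGA in its window, and 3 had CTGA. ACA also stood at the end of 7 Snord genes, among them Snord70 and Snord19, which had neither C nor D box letters, and Snord91a, Snord43 and Snord71 had none of the letters searched. Of the 9 Scarna genes, 4 had both C and D box letters and 4 had ACA, so that class mixes both kinds. The search used the gene's own strand and these exact letters. In the first 84 bases of 9096 lincRNA transcripts, a window of the median Snord length, both C and D box letters were found in 0.011% and ACA in 9.17%. In the first 132 bases of 9087 lincRNA transcripts, near the median Snora length, ACA was found in 10.6%. Snord53 lacks CTGA in its window as annotated, which says only that these letters are not there. Median GC content was 44.7% in Snord, 48.5% in Snora and 50.9% in Scarna genes.

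Most of the small RNAs lay inside a host gene. The annotation put 141 of the 150 within a gene on the same strand, 78 of them wholly in introns, 55 in exons and 8 in introns of some transcripts and exons of others, and 9 had no such host. Of the distinct hosts, 24 of 96 encoded ribosomal proteins, 48 were other protein-coding genes and 24 had a type other than protein-coding or were Snhg genes. More than 1 small RNA was carried by 28 hosts, and Snhg14 carried the most with 17.

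Whether a small RNA had any reads at all went with its overlap with exons of other genes. Among small RNAs with no base in an exon of another gene, 60 of 74 had at least 1 read in the 4 libraries together. When some bases overlapped on the same strand, 13 of 16 had reads. None of the 57 small RNAs that were covered completely by exons on the same strand (37 Snord and 20 Snora) had a read, nor did the 3 that were covered completely by exons on the opposite strand. Those 3 were Snord42a and Snord4a under Tlcd1, and Snora73b under Gm17300. Over all genes of the files, 59.5% of those without exonic overlap had reads, against 1 of 714 fully covered on the same strand and 1 of 436 fully covered on the opposite strand. A count of 0 in a fully covered small RNA therefore cannot be told apart from reads that were assigned to no gene, and no level is given for these RNAs.

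**Figure D1:**
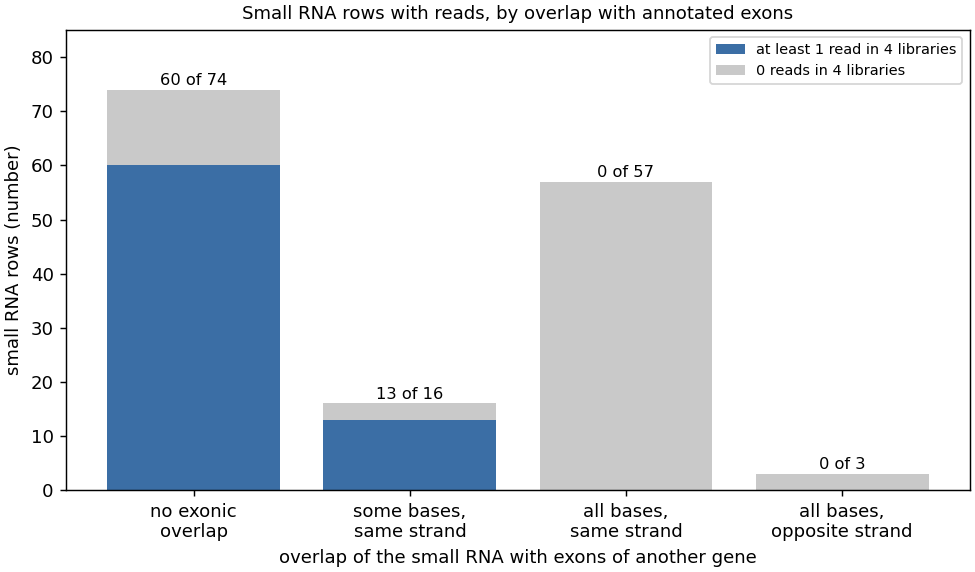
Number of small RNAs (vertical axis) by the extent and strand of their overlap with exons of another gene (horizontal axis), with blue for those with at least 1 read in the 4 libraries and grey for those with none. Reads were found for 60 of 74 small RNAs without overlap and for 0 of 57 and 0 of 3 that were covered completely.

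The 14 small RNAs without exonic overlap that still had no read were Snora35, in an intron of the serotonin receptor gene Htr2c, and 13 of the 17 Snord116 copies. Snord116 is a box C/D family of the imprinted Prader-Willi region, carried by Snhg14, with no assigned ribosomal target. The 17 copies are each 94 bases long, have 4 distinct sequences and differ from each other by at most 5 bases. Together they held 13 reads, on 4 copies. A read that matches 14 identical copies has no single place, so a 0 on those copies cannot be told apart from unassigned reads either. Of the identical copies, Snord116l10 still held 3 reads and Snord116l11 held 1. Snord116l14, also at 0, is not among the identical copies.

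Read counts of the small RNAs were low. A 0 on those covered completely or on identical Snord116 copies is not a level. Of the 150, 73 had at least 1 read, 77 had none and 36 had enough reads for the test (edgeR's filterByExpr). Including the 12 Snhg genes tested, 48 of 165 members entered the test and 117 did not. The tested members had at least 33 reads over the 4 libraries and those not tested at most 36. All Snord genes together held 2837 reads, all Snora genes 1305 and all Scarna genes 10828, and Snhg genes held 26042. All members made up between 0.0240 and 0.0260% of the reads of a library. Values below are reads or CPM (counts divided by the TMM-scaled library size), with the 2 control libraries before the 2 Phf8 shRNA libraries.

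Few members changed with the Phf8 shRNA. A gene was called when its p-value from edgeR's quasi-likelihood test, after Benjamini-Hochberg adjustment over all 21042 genes tested, was under 0.05. By this rule 7 of the 48 tested members were called (3 higher, 4 lower), against 52.1% of all genes tested (24.8% higher and 27.3% lower). The members called were Snord53, Snord58b and Snhg14 (higher) and Snord17, Scarna2, Snhg8 and Snhg15 (lower). The CPM of the groups did not overlap for 16 of the 48, against 73.9% of all genes tested. Tested members had a median absolute log2 fold change of 0.22, against 0.32 for all genes tested. With upper-quartile scaling, 4 members were called higher and 1 lower, and calls over all genes moved from 5225 higher and 5740 lower to 6640 and 4811.

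Most members had few reads, and the share of genes called rose with level. Of all genes with a mean below 0.5 CPM, 28.2% were called, and of the small RNAs there, 1 of 15. From 0.5 to 1 CPM the share over all genes was 31.1%, and 0 of 10 small RNAs and 0 of 2 Snhg genes were called. From 1 to 3 CPM it was 46.4%, and 2 of 8 small RNAs and 0 of 1 Snhg gene were called. From 3 to 100 CPM it was 62.4% over all genes, 1 of 3 for small RNAs and 3 of 9 for Snhg genes. These shares describe the members beside genes of like level and were not tested.

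Of the box C/D class, 18 of 99 genes were tested and 3 were called, 2 higher and 1 lower. Their median log2 fold change was -0.04, against 0.01 over all genes tested. Summed over the class, Snord levels were 17.6 and 16.6 CPM in the control and 16.7 and 18.3 CPM in the Phf8 shRNA libraries. The groups overlapped, and the ratio of the Phf8 shRNA to the control sum was 1.02, with a 95% counting interval of 0.944 to 1.10 that covers counting error only. Without Snord17, the most abundant of the class, the groups still overlapped and the ratio was 1.09 (1.00 to 1.17).

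Snord17, which lies in an intron of the sorting nexin gene Snx5 and is thought to guide methylation of large-subunit ribosomal RNA, fell. It had 97 and 105 reads in the control and 60 and 54 in the Phf8 shRNA libraries, or 2.24, 2.57, 1.39 and 1.47 CPM. Both Phf8 shRNA libraries were below both controls. The mean went from 2.40 ± 0.23 CPM (SD, n = 2) to 1.43 ± 0.06 CPM (SD, n = 2), and the log2 fold change was -0.75 (SE 0.20, adjusted p = 3.8e-04 in edgeR). The call held in DESeq2 (adjusted p = 0.0273) and with each library left out, where the log2 fold change ranged from -0.85 to -0.65. It was lost with the biological coefficient of variation set to 0.2 (adjusted p = 0.122).

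Snord53, in an intron of the ribosome biogenesis gene Wdr43, rose. It had 36 and 40 reads in the control and 56 and 53 reads in the Phf8 shRNA libraries. The Phf8 shRNA libraries were both higher, at 1.30 and 1.44 CPM against 0.83 and 0.98 CPM. Its log2 fold change was 0.59 (SE 0.25, adjusted p = 0.0323 in edgeR), and DESeq2 did not call it (adjusted p = 0.216). Without Phf8 shRNA replicate 2, control replicate 1 or control replicate 2, the adjusted p in edgeR was 0.129, 0.237 and 0.0631.

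Snord58b, in an intron of Rpl17, had only 5 and 5 reads in the control and 15 and 9 reads in the Phf8 shRNA libraries. The groups did not overlap, and the log2 fold change was 1.31 (SE 0.54, adjusted p = 0.0291 in edgeR). DESeq2 gave an adjusted p of 0.256, and edgeR's adjusted p was 0.0753, 0.191 and 0.155 without Phf8 shRNA replicate 2, control replicate 1 and control replicate 2. It was the member with the largest log2 fold change and had the fewest reads of the 7 called.

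Among the other abundant box C/D snoRNAs, none passed the test. Snord104 had 81 and 47 reads in the control and 66 and 75 reads in the Phf8 shRNA libraries. Its libraries overlapped, and the control replicates alone spanned 1.15 to 1.87 CPM. Snord91a, in an intron of the ribosome biogenesis gene Tsr1, had 46, 51, 64 and 56 reads. Both Phf8 shRNA values of Snord91a were above both controls, with a log2 fold change of 0.38 (adjusted p = 0.155, edgeR). Snord43, in an intron of Rpl3, went the other way with 60, 51, 47 and 42 reads and a log2 fold change of -0.24 (adjusted p = 0.407, edgeR). Snord71 (Ap1g1), Snord98 (Ccar1) and Snord15a (Rps3) had mean levels of 0.80 to 1.01 CPM, log2 fold changes of 0.28, -0.09 and -0.16, and groups that overlapped.

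No box H/ACA snoRNA passed the test. Of 42 Snora genes, 13 were tested and 0 were called by edgeR, 0 had an unadjusted p under 0.05 and DESeq2 called 0. Snora69, in an intron of Rpl39, had 12, 5, 8 and 20 reads and was called only when Phf8 shRNA replicate 1 was left out. Their log2 fold changes ranged from -0.42 to 0.79 with a median of 0.02. The Snora sum was 8.16 and 7.99 CPM in the control and 7.86 and 7.76 CPM in the Phf8 shRNA libraries. Both Phf8 shRNA sums lay just below the controls, with a ratio of 0.968 and a 95% counting interval of 0.867 to 1.08. The sign of this difference turned with upper-quartile scaling.

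Snora30, in an intron of the chromatin remodeller gene Srcap, had 73, 82, 88 and 63 reads, or 1.69 and 2.00 CPM in the control and 2.04 and 1.72 CPM in the Phf8 shRNA libraries. Its groups overlapped. Snora17, with no host, had 45 and 77 reads in the control and 59 and 41 in the Phf8 shRNA libraries, and the controls differed more from each other than the group means did. Snora47, in an intron of Zbed3, had 42, 30, 24 and 27 reads and a log2 fold change of -0.42 (adjusted p = 0.241, edgeR). The groups just overlapped, with the lower control at 0.733 CPM and the higher Phf8 shRNA library at 0.736 CPM. Snora31 (in Tpt1), Snora78 (Snhg9), Snora23 (Ipo7), Snora21 (Rpl23) and Snora57 (no host) had between 10 and 28 reads in every library, and none of the 5 separated the groups.

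**Figure D2:**
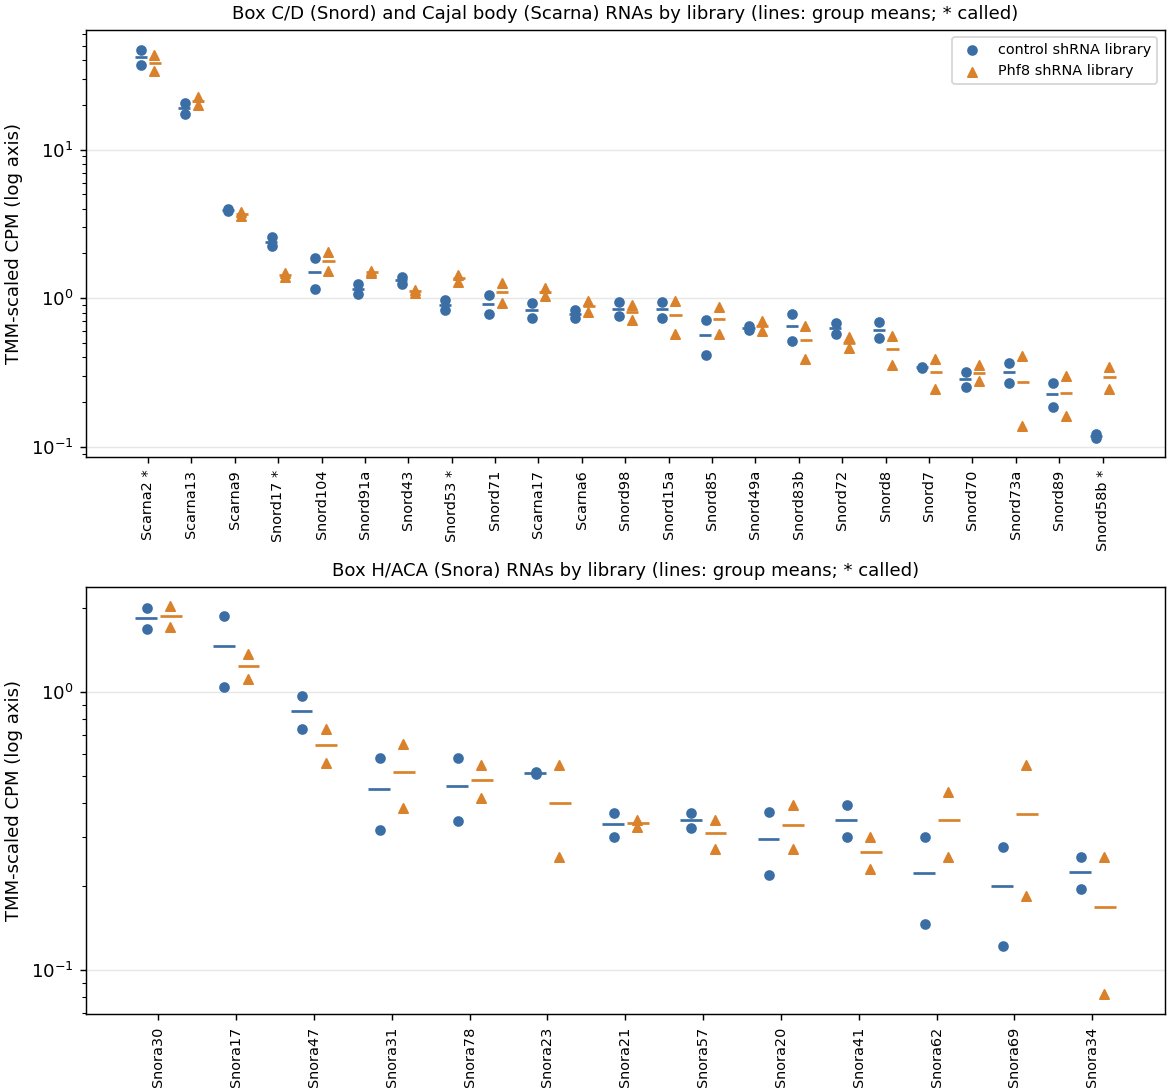
TMM-scaled CPM on a log axis for the tested small RNAs in each library, with circles for control and triangles for Phf8 shRNA libraries and lines for group means (n = 2). Scarna2 and Scarna13 stand above all others, and most symbols of the 2 groups overlap.

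Scarna2, Scarna13 and Scarna9 had the highest CPM of the tested small RNAs. Class sums are not set against each other, because the Snord and Snora sums include completely covered genes whose 0 is not a level. Scarna2 (414 bases) and Scarna13 (275 bases) are also longer than the median Snord (84) and Snora (132.5) gene. The part of length in these levels was not tested. Scarna2 and Scarna13 held most of the 10828 Scarna reads, and the class sum was 73.1 and 60.4 CPM in the control and 59.3 and 71.7 CPM in the Phf8 shRNA libraries. The groups overlapped, with a ratio of 0.971 (95% counting interval 0.935 to 1.01), so the spread between replicates exceeded the difference between groups. Without Scarna2 the sums were 26.2 and 23.3 CPM in the control and 25.7 and 28.5 CPM in the Phf8 shRNA libraries. These still overlapped, and the ratio was 1.09 (1.03 to 1.16), so its direction depended on Scarna2. Of 9 Scarna genes 5 were tested, and the call was on Scarna2.

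Scarna2, which has its own transcription unit at chr3:108554338-108554751 on the minus strand and no host, had 2031 and 1515 reads in the control and 1451 and 1585 reads in the Phf8 shRNA libraries. The CPM values were 46.9, 37.0, 33.6 and 43.2, so the lower control lay below the higher Phf8 shRNA library. Its log2 fold change was -0.14 (SE 0.06, adjusted p = 0.0447 in edgeR). The call did not hold up: the sign turned without Phf8 shRNA replicate 1 (0.040, adjusted p = 0.669) and without control replicate 1 (0.038, adjusted p = 0.732), and DESeq2 gave an adjusted p of 0.736.

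Scarna13, which lies in an intron of Snhg10 and shares 23.6% of its bases with an annotated microRNA gene, Mir3069, had 20.5, 17.5, 19.9 and 22.6 CPM. The groups overlapped, and the log2 fold change was 0.16 (SE 0.07, adjusted p = 0.0560 in edgeR). Scarna13 was called higher with upper-quartile scaling (0.24, adjusted p = 0.00307), with a minimum mean of 1 CPM (0.17, adjusted p = 0.0313), without Phf8 shRNA replicate 1 (0.25, adjusted p = 0.00918) and without control replicate 1 (0.27, adjusted p = 0.0109). In all of these but the 1 CPM minimum, Scarna2 was not called, so the Scarna call moved to a gene in the other direction. Scarna9, in an intron of the centrosomal gene Cep295, had 3.86, 3.96, 3.79 and 3.60 CPM. Both Phf8 shRNA libraries of Scarna9 lay just below the controls, and it did not pass the test (log2 fold change -0.08, adjusted p = 0.673, edgeR). Scarna17 and Scarna6, the latter in an intron of the autophagy gene Atg16l1, had group means of 0.783 to 1.11 CPM and log2 fold changes of 0.40 and 0.16, neither past the test.

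The Snhg class showed 1 gene higher and 2 lower among 12 tested of 15. Its median log2 fold change was -0.01. The class sum was 152 and 153 CPM in the control and 167 and 163 CPM in the Phf8 shRNA libraries, a ratio of 1.09 (95% counting interval 1.06 to 1.11). This direction came from 1 gene: without Snhg14 the sums were 99.0 and 97.3 CPM against 96.3 and 92.6 CPM, and the ratio was 0.964 (0.935 to 0.995).

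Snhg14, the long transcript of the Prader-Willi and Angelman region that carries the Snord116 copies, rose. It lies at chr7:59307924-59975759 on the minus strand, with 26093 exonic bases. Its level was 53.2 and 55.3 CPM in the control and 71.1 and 70.1 CPM in the Phf8 shRNA libraries, so the groups were far apart compared with their replicates. The log2 fold change was 0.38 (SE 0.06, adjusted p = 1.1e-10 in edgeR), a rise of 30.3%. DESeq2 and all 4 fits with a library left out called it too, while the biological coefficient of variation of 0.2 did not (adjusted p = 0.488).

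Its neighbours were measured beside it. Ube3a, a ubiquitin ligase gene on the opposite strand (chr7:59228750-59311536), had 149, 154, 146 and 147 CPM. Its log2 fold change was -0.05 (adjusted p = 0.441, edgeR). The annotated span of Snhg14 overlaps only the 3′ end of Ube3a. The transcripts share bases, with 6.91% of the exonic length of Snhg14 under exons of Ube3a. Over all genes, 1 of 436 fully covered on the opposite strand had reads, so reads in the shared bases may have been assigned to neither gene. Snrpn lies further upstream on the strand of Snhg14 and shares 27.3% of its exonic bases with other genes on that strand. It had 16.7, 18.1, 16.7 and 17.7 CPM, with overlapping groups (log2 fold change -0.02, adjusted p = 0.879, edgeR). Gm38393, whose span overlaps those of Snhg14 and Snrpn on that strand, had 27.2, 28.6, 29.6 and 30.2 CPM. The groups of Gm38393 did not overlap (log2 fold change 0.10, adjusted p = 0.197, edgeR). Of the neuronal marker list, 7 of 8 tested genes were higher and 0 lower, against 24.8% higher and 27.3% lower over all genes tested. The summed marker level was 1156 and 1196 CPM in the control and 1901 and 1896 CPM in the Phf8 shRNA libraries. The part of these markers in the Snhg14 result was not tested.

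Snhg15 and Snhg8 were lower. Snhg15 (chr11:6525591-6528779, minus strand), the host of Snora9, had 7.51 and 7.87 CPM in the control and 6.29 and 6.07 CPM in the Phf8 shRNA libraries. The groups did not overlap, and the log2 fold change was -0.31 (SE 0.11, adjusted p = 0.00845 in edgeR). Snhg8 (chr3:123507552-123508404, minus strand), the host of Snora24, had 8.99, 9.24, 8.12 and 7.41 CPM and a log2 fold change of -0.23 (SE 0.10, adjusted p = 0.0409, edgeR), and its groups did not overlap either. Both calls were lost in DESeq2 (adjusted p = 0.0976 and 0.209), with upper-quartile scaling (0.0615 and 0.208) and without control replicate 2 (0.0965 and 0.186). Snhg8 was also not called without control replicate 1 (0.0875) or Phf8 shRNA replicate 2 (0.240), or with no low-count filter (0.0556).

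The other abundant Snhg genes differed little. Snhg17 had 20.5, 20.9, 20.95 and 21.2 CPM and a log2 fold change of 0.03. Snhg1 had 20.5 and 20.97 CPM in the control and 19.7 and 18.5 CPM in the Phf8 shRNA libraries, lower in both (log2 fold change -0.12, adjusted p = 0.180 in edgeR). Snhg1 was called with scaling to library size alone. Snhg5, Snhg12, Snhg6 and Snhg20 had means from 6.44 to 13.4 CPM, overlapping groups and log2 fold changes of 0.02, 0.03, -0.05 and 0.09. Snhg1 and Snhg12 share 20.9% and 19.6% of their exonic bases with other genes on the same strand, and whether reads there were counted was not tested.

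The scarce Snhg genes moved by more and with more error. Snhg10, the host of Scarna13, had 67, 58, 52 and 37 reads, lower in both Phf8 shRNA libraries, with a log2 fold change of -0.42 (SE 0.23, adjusted p = 0.120 in edgeR). Snhg11, a neuron-enriched transcript that the annotation types as protein-coding, had 34, 31, 59 and 29 reads. Its log2 fold change of 0.50 (SE 0.27, adjusted p = 0.107, edgeR) came from the first Phf8 shRNA library, since the second, at 0.79 CPM, lay beside the controls at 0.79 and 0.76 CPM. Snhg9 had between 14 and 28 reads per library and overlapping groups. Snhg18, Snhg7os and Snhg3 had too few reads for the test, and 71.5% of the exonic bases of Snhg3 lie opposite Gm17300.

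**Figure D3:**
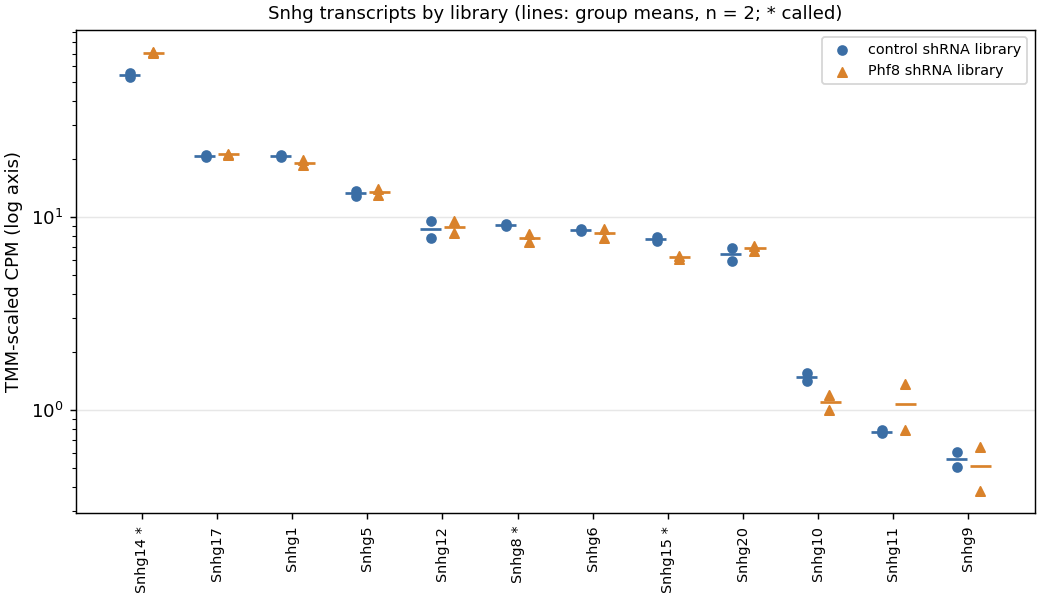
TMM-scaled CPM on a log axis for the 12 tested Snhg genes in each library, with circles for control and triangles for Phf8 shRNA libraries, lines for group means (n = 2) and asterisks for called genes. Snhg14 is the gene whose triangles stand clearly above its circles, and Snhg15 and Snhg8 have triangles below their circles.

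Pooled over all kinds, the share of host genes called was near that over all genes tested, although hosts had higher levels. Tested hosts had a median level of 62.4 CPM, against 6.22 CPM over all genes tested. From 3 to 100 CPM, 62.4% of all genes tested were called. Of 96 hosts 91 were tested and 49 were called (53.8%, against 52.1% of all genes tested), 37 higher and 12 lower, against 24.8% higher and 27.3% lower over all genes. The groups did not overlap for 68 of the 91, against 73.9% of all genes tested. By kind, 70.8% of ribosomal protein hosts, 51.1% of other protein-coding hosts and 40.9% of the remaining hosts tested were called. Their median levels were 83.9, 84.3 and 7.66 CPM. These shares were not tested against each other or against genes of like level. No host reached a 2-fold change. With upper-quartile scaling the split was 50 higher and 7 lower, and with library size alone it was 30 and 15.

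Ribosomal protein hosts were mostly higher. Of 24, all tested, 15 were higher and 2 lower, with a median log2 fold change of 0.24, against 24.8% higher, 27.3% lower and a median of 0.01 over all genes tested. Rpl13, the host of Snord68, had 70.5 and 69.6 CPM in the control and 94.6 and 93.3 CPM in the Phf8 shRNA libraries, a log2 fold change of 0.42. Rpsa, the host of Snora62, and Rps12, the host of Snora33 and Snord100, both rose by 0.39 on the log2 scale. Rps2 and Rpl39, the hosts of Snora64 and Snora69, were called lower, at -0.14 and -0.18. The groups of Rpl39 overlapped, at 85.9 and 96.6 CPM in the control and 88.8 and 72.1 CPM in the Phf8 shRNA libraries. Ribosomal protein genes have many near-identical pseudogenes, so their values are uncertain where reads could be split between copies.

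Other protein-coding hosts went both ways, with 16 higher and 7 lower of 45 tested and a median log2 fold change of 0.06. The translation factor gene Eef2, the host of Snord37, and Tpt1, the host of Snora31, were among those that rose, by 0.36 and 0.40. Ipo7, an importin gene that hosts Snora23, had 242 and 248 CPM in the control and 196 and 176 CPM in the Phf8 shRNA libraries (log2 fold change -0.40). Haus6, which encodes a subunit of the spindle complex augmin and hosts Scarna8, also fell by 0.40, and the chaperone gene Hspa8, which hosts 3 Snord14 copies, fell by 0.26. Snx5, the host of Snord17, had 148, 159, 137 and 120 CPM and fell by 0.25 on the log2 scale (adjusted p = 2.3e-05, edgeR).

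Among the hosts that are not typed as protein-coding or are Snhg genes, 6 rose and 3 fell of 22 tested, and the median log2 fold change was 0.02. Gas5, a growth-arrest transcript that hosts 4 of the small RNAs, had 98.2 and 92.6 CPM in the control and 123 and 112 CPM in the Phf8 shRNA libraries. Its groups did not overlap, and its log2 fold change was 0.30 (SE 0.06, adjusted p = 2.5e-07 in edgeR). Zfas1, the host of Snord12, rose by 0.27, and 2410006H16Rik, the host of Snord49a, Snord49b and Snord65, rose by 0.43. Cct6a, a chaperonin gene whose annotated type here is processed transcript and which hosts Snora15, fell by 0.25. Hosts and pairs of small RNAs that the naming rule does not take, Gas5, Rpl13 and Rps12 among them, were chosen after their values were seen.

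**Figure D4:**
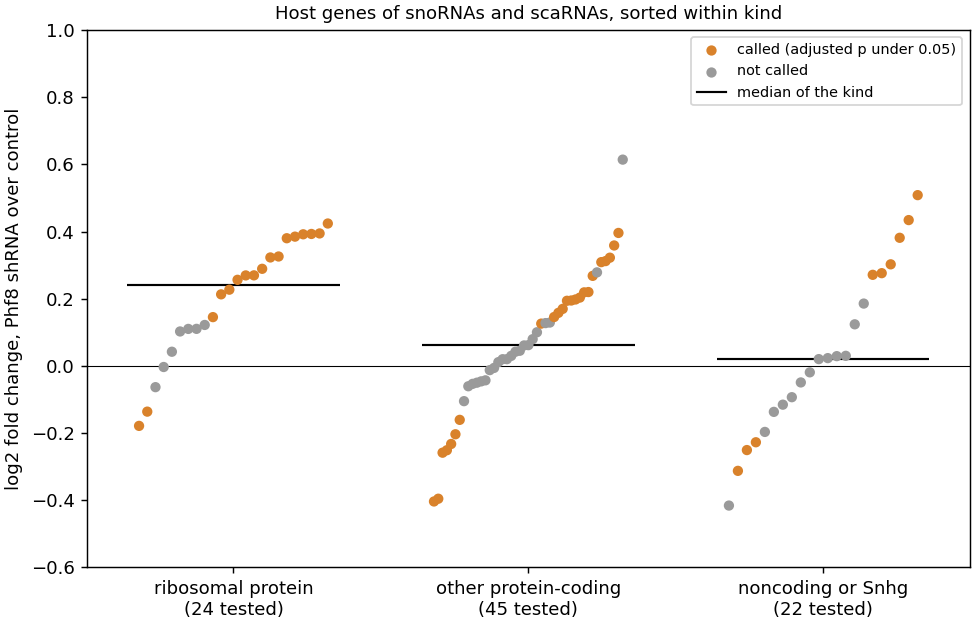
Log2 fold change of the tested hosts (Phf8 shRNA over control) by kind of host, with each point a gene and called genes marked. Ribosomal protein hosts sit mostly above 0 with a median of 0.24, and the other kinds spread around 0.06 and 0.02.

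Fold changes of small RNAs and hosts showed no common direction. Both were tested in 31 pairs with 30 hosts, and the fold change had the same sign in 14 of 31. Across these pairs, which share the same 4 libraries and mostly rest on small RNAs with few reads, Pearson's r was -0.01 and Spearman's rho -0.06. These are descriptions over pairs, not replicates. The per-library ratio of small RNA to host reads separated the groups in 13 pairs, higher with the Phf8 shRNA in 4 and lower in 9. In pairs of other annotated snoRNA or scaRNA genes and their hosts the ratio separated in 36 of 100, so the count of 13 in 31 is read as no result about the members.

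Pairs differed widely in how dense the reads were on the small RNA. Per kilobase of exonic length, the small RNA had a median of 0.255 times the level of its host, with a range of 0.0294 to 29.9, and 9 of 31 exceeded 1. Scarna13 stood 29.9 times above Snhg10, Scarna9 22.4 times above Cep295 and Snora30 10.4 times above Srcap. Exons of other genes cover 61.7% of the exonic bases of Srcap on the same strand and 19.1% of those of Cep295 on the opposite strand. The full exonic length was used for both hosts, so these 2 ratios may be too high where reads in shared bases were not assigned. The pairs under 0.1 were all Snora or Snord genes in ribosomal protein genes, Eef1b2 or Tpt1, such as Snora62 in Rpsa at 0.0345. For such pairs reads from the unspliced host intron could be counted on the small RNA, and their part was not tested.

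For the called Snord genes the ratio to the host separated the groups. The reads of Snord17 were 1.52% and 1.61% of those of Snx5 in the control and 1.01% and 1.23% in the Phf8 shRNA libraries, lower in both. Snord53 had 1.60% and 1.91% of the reads of Wdr43 in the control and 2.44% and 2.76% in the Phf8 shRNA libraries, while Wdr43 itself had a log2 fold change of 0.03 and was not called. Snord58b had 0.174% and 0.204% of the reads of Rpl17 in the control and 0.507% and 0.360% in the Phf8 shRNA libraries. The ratio also separated the groups in a pair in which neither gene was called: Scarna13 had 1322% and 1231% of the reads of Snhg10 in the control and 1656% and 2241% in the Phf8 shRNA libraries. These ratios were not tested. Where the host was higher, the small RNA often was not: Snord49a had a log2 fold change of 0.05 against 0.43 for 2410006H16Rik, and Snord72 had -0.33 against 0.32 for Rpl37.

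**Figure D5:**
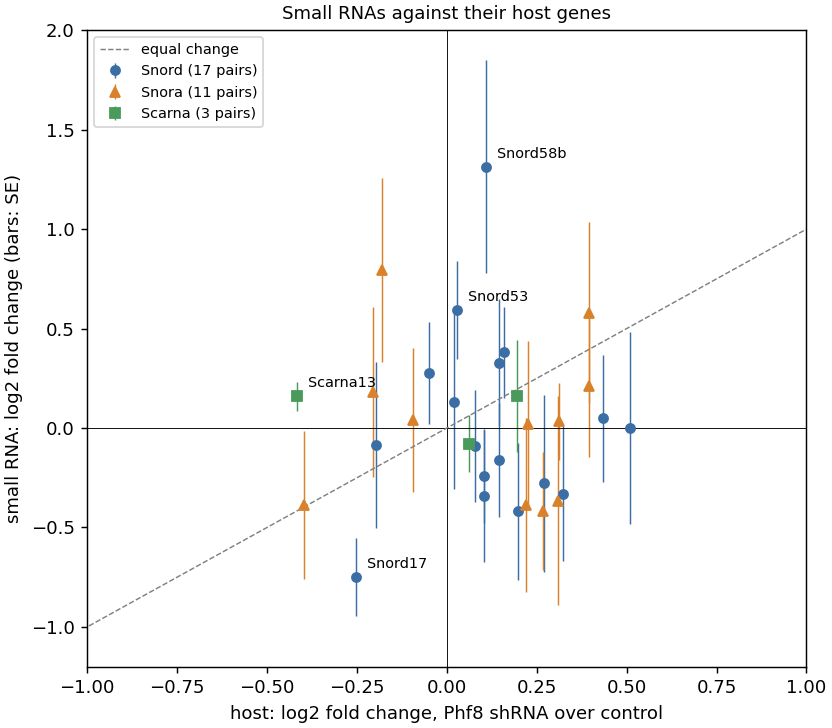
Log2 fold change of each tested small RNA (vertical axis) against that of its host (horizontal axis) for 31 pairs, Phf8 shRNA over control. The points show no common direction, with 14 of 31 of the same sign, and Snord17 and Snord58b lie farthest down and up.

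Genes of the snoRNA pathway were examined from lists. Every count in these lists stands beside 24.8% higher and 27.3% lower over all genes tested. Of the 8 core proteins of the particles, 1 was higher and 2 were lower, with a median log2 fold change of 0.01. Nop56, a core protein of box C/D particles and itself a host, had 35.2, 33.6, 40.9 and 39.2 CPM and rose by 0.22. The box H/ACA core genes Nhp2 and Nop10 fell by 0.51 and 0.36. Nhp2 had 21.9 and 20.7 CPM in the control and 15.2 and 14.8 CPM in the Phf8 shRNA libraries, with an adjusted p of 1.4e-10 in edgeR. The other core genes, Fbl, Nop58, Snu13, Dkc1 and Gar1, had log2 fold changes between -0.07 and 0.12 and were not called.

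Of the assembly and maturation factors, 7 were lower and 3 higher of 16 tested, with a median of -0.19, against 27.3% lower and 24.8% higher over all genes tested. Rpap3, Ruvbl1, Pih1d1 and Ruvbl2, which form the R2TP co-chaperone complex that helps assemble these particles, fell by 0.68, 0.50, 0.41 and 0.29 on the log2 scale. Znhit6, a box C/D assembly factor, rose by 0.39 on the log2 scale. Wrap53, which brings scaRNAs to Cajal bodies, fell by 0.43, and Dbr1, which opens intron lariats, fell by 0.28 (both outside the naming rule and chosen after their values were seen).

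Genes that make and process ribosomal RNA showed no common direction. Over all genes tested 52.1% were called. In the RNA polymerase I list 1 gene was higher and 5 were lower of 15 tested (median -0.02), with Taf1a at -0.35 and Twistnb at -0.23 among them. With upper-quartile scaling this list had 3 higher and 1 lower. Of 30 processing factors 4 were higher and 4 lower (median 0.03). Noc4l, a small-subunit maturation factor, stood apart with 49.2 and 47.2 CPM in the control and 13.7 and 13.9 CPM in the Phf8 shRNA libraries, a log2 fold change of -1.81. The split for processing factors was 12 higher and 3 lower with upper-quartile scaling and 0 and 6 with library size alone. Of the ribosomal protein list, 31 of 41 tested genes were higher and 1 lower (median 0.19). Nonsense-mediated decay, which degrades many spliced Snhg transcripts, had 2 genes higher and 3 lower of 14 tested (median 0.01), with Upf1 at -0.29 and Smg1 at 0.28. With upper-quartile scaling, 6 decay genes were higher and 3 lower. The proliferation list had 0 higher and 9 lower of 10, with a summed level of 136 and 136 CPM in the control and 72.1 and 66.0 CPM in the Phf8 shRNA libraries. Its part in the ribosome and snoRNA pathway results was not tested.

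Other short structured RNAs were compared as the nearest kind of transcript. Of 20 such genes in the files 7 had no read and 8 were tested. Of these 8, 0 were higher and 2 lower, against 24.8% higher and 27.3% lower over all genes tested. Rn7sk, which holds back the elongation factor P-TEFb, had 1720 and 1448 CPM in the control and 946 and 1094 CPM in the Phf8 shRNA libraries, and fell by 0.64 on the log2 scale. Rnu2-10, a copy of a spliceosomal RNA, had 37, 35, 14 and 19 reads and a log2 fold change of -1.04. The groups did not overlap in either case. Among the 9 tested nuclear long noncoding RNAs, 5 were higher and 1 lower, with Neat1, the scaffold of paraspeckles, at -2.10 and Miat at 1.29.

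The labels and the libraries were checked once for the whole series. Phf8 had 53.3 and 53.0 CPM in the control and 44.3 and 42.3 CPM in the Phf8 shRNA libraries, 18.5% less (log2 fold change -0.30, SE 0.06, adjusted p = 1.7e-06 in edgeR). Libraries had 36839530 to 44724759 reads, and mitochondrial ribosomal RNA made up 21.2 to 22.5% in the control and 27.8 to 28.2% in the Phf8 shRNA libraries. The marker counts that follow stand beside 24.8% higher and 27.3% lower over all genes tested. All 10 astrocyte markers were tested, 2 higher and 7 lower. Their sum was 9743 and 9483 CPM in the control and 6756 and 6038 CPM in the Phf8 shRNA libraries. Oligodendrocyte markers were higher in 9 of 10 (sum 688 and 643 against 1179 and 1147 CPM). Microglial markers (0 higher and 2 lower of 5 tested, sums of 6.08 to 9.63 CPM, C1qa at 0) and endothelial and mural markers (1 higher and 4 lower of 8 tested, sums of 26.3 to 28.1 CPM, Cdh5 at 0) were low. In bulk RNA, fewer cells of a type and less RNA per cell cannot be told apart, and the part of these shifts in the results above was not tested.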

How the data were processed

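Strand-marked total RNA libraries of 2 control shRNA and 2 Phf8 shRNA astrocyte cultures were analysed from deposited whole-number read counts per gene. The submitters' processing notes name HISAT2, HTSeq, DESeq2 and the mm10 build. No source used here gives their versions, the annotation release or the counting's strand setting. GENCODE M21 held 55240 of the 55421 gene identifiers, with equal coordinates for 54985 (164 of the 165 members), and supplied symbols, types, exons, hosts and sequences. A host is a gene on the same strand whose span contains the small RNA. Groups came from sample titles.

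Counts were tested with edgeR 4.0.16 under R 4.3.3 (two-sided quasi-likelihood F test), on genes kept by filterByExpr, with TMM scaling, no covariates and Benjamini-Hochberg adjustment over 21042 genes. The calls rest on a low biological coefficient of variation (3.64%) between replicates. The labels call these biological replicates without naming separate cultures, so the p-values reflect the spread of these samples alone and that spread may be technical. The test was checked on simulated counts. The members and gene lists were chosen with earlier results of these data known. Named genes are Phf8, every tested Snhg and Scarna gene, the 8 most abundant tested Snord and Snora genes, the called ones, their hosts, and from each list the called genes of smallest p, 4 at most. Alternatives were DESeq2 1.42.0, other scalings and filters, a replicate block, leaving out each library, a set dispersion, a minimum fold change, membership by gene type, and leaving out mitochondrial and abundant genes. No sample was left out.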

Additional observations from a re-analysis of the deposited data

How the results depend on the processing

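The spread set to a biological coefficient of variation of 0.2 and a minimum absolute log2 fold change of 1 removed most calls. They left 3305 and 2990 calls over all genes, 0 and 1 among members (Snord 0 and 1, Scarna 0 and 0, Snhg 0 and 0) and 0 and 0 among hosts. In the lists they left 0 and 0 for core, assembly, RNA polymerase I, decay and ribosomal protein genes, 1 and 1 for processing factors, 0 and 1 for structured RNAs and 2 and 2 for nuclear RNAs. Phf8 kept its log2 fold change of -0.30 but was not called under either. DESeq2 called 2 members (Snord 1, Scarna 0, Snhg 1), 2 RNA polymerase I genes, 4 processing factors and 1 structured RNA. Upper-quartile scaling left 1 Snhg call and gave 15 processing and 9 decay calls. Library size alone left 0 Scarna calls, a filter of 1 CPM gave 2 Scarna calls and 1 structured RNA, and no low-count filter gave 5 processing calls. Membership by gene type gave 29 calls (21 higher, 8 lower). With each library left out, calls ranged from 3 to 7 among members (Snord 1 to 2, Snora 0 to 1, with Snora69 called without Phf8 shRNA replicate 1, Snhg 1 to 3), 2 to 5 in the RNA polymerase I list and 5 to 8 among processing factors. Leaving out control replicate 2 gave the fewest member and Snhg calls (3 and 1). Scarna2 reversed to 0.040 without Phf8 shRNA replicate 1 and to 0.038 without control replicate 1. Its log2 fold change over the 4 fits that left out a library ranged from -0.32 to 0.040. The cause of these shifts was not tested.

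Relative to TMM, upper-quartile scaling moved the median of all genes by 0.08 and library size alone by -0.05 on the log2 scale. With the replicate block, 10929 genes and 7 members were called, and hosts went from 49 to 48. The block changed no other count by more than 1.5 times. The deviations of libraries with the same number had a correlation of -0.001. With 2 libraries per group both numbers must give the same value. It cannot show whether libraries with the same number were handled together. The median difference in log2 fold change, small RNA minus host, was -0.17 in 31 pairs and 0.04 in the 8 pairs whose small RNA reached 1 CPM. Of the 150 small RNAs, 114 had too few reads for the test, so a difference in them was not detectable here. Depth may not be the only limit. The 114 included 57 covered completely by exons on the same strand and 3 on the opposite strand, all with no read. They also included the Snord116 copies, 14 of which are identical in sequence. A 0 on these cannot be told apart from unassigned reads.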

Other observations

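Most annotated snoRNA and scaRNA genes of the files carry predicted-gene symbols and fall outside the named families. There were 1409 of them, 509 had reads and 156 were tested, of which 18 were higher and 4 lower with the Phf8 shRNA (edgeR, adjusted p under 0.05). This is 14.1% of those tested, against 52.1% of all genes tested. The examples that follow were chosen after their values were seen. Gm24171 had 10 and 16 reads in the control and 48 and 49 in the Phf8 shRNA libraries (log2 fold change 1.97, SE 0.32), and both Phf8 shRNA libraries stood well above both controls. Gm25346 had 2 and 1 reads in the control and 14 and 14 in the Phf8 shRNA libraries. The most abundant, Gm22009, is typed as a scaRNA and lies within Kpna4. It had 99.8 and 92.9 CPM in the control and 74.8 and 89.0 CPM in the Phf8 shRNA libraries, with a log2 fold change of -0.24 and groups that did not overlap.

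For these predicted genes the fold change went with that of the host more often than for the named families. Across 100 pairs with 93 hosts, 67 had the same sign, Pearson's r was 0.41 and Spearman's rho 0.41. In the 30 pairs whose small RNA had at least 100 reads, r was 0.21. The pairs share the same 4 libraries, the difference from the 31 named pairs was not tested, and reads of the host intron counted on the small RNA were not told apart.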
